A study of Bos taurus with 81 samples.

Results

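The trophectoderm (TE) of the cattle blastocyst gave 3598 stretches of chromatin that were open and acetylated at H3K27, lay away from H3K4me3 and had no overlapping ATAC peak in the inner cell mass (ICM). They were found on the 29 autosomes as contiguous stretches of at least 200 bp covered in all 3 TE ATAC libraries and both TE H3K27ac libraries, overlapped by no peak of the 3 ICM ATAC libraries and at least 1 kb from every H3K4me3 peak of ICM, TE or whole blastocysts. They made up 9.47% of the 37990 stretches that were open and acetylated in TE, and 36.1% of the 9979 distal ones. They are called TE-specific below only in this sense, and their activity as enhancers was not measured. The measured values that chose them, in TE, in ICM ATAC and in blastocyst, ICM and TE H3K4me3, are given as descriptions and were not tested.

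The trophectoderm is the outer epithelium of the blastocyst, which goes on to form the fetal part of the placenta, while the inner cell mass forms the embryo proper. Enhancers are regulatory stretches that can lie far from the promoters they act on. When active they are usually open to a transposase and carry H3K27ac, whereas H3K4me3 marks promoters. H3K27me3 is the Polycomb mark of facultative repression and H3K9me3 the mark of constitutive heterochromatin. Both are found on chromatin that is kept silent.

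Histone marks were mapped by CUT&Tag, where an antibody directs a transposase to a mark, and open chromatin by ATAC-seq, where the transposase acts unaided. The embryos had been produced in vitro from oocytes of slaughterhouse ovaries. The 4 marks had 2 libraries in each of 9 groups and ATAC had 3 libraries in each of 3 groups, 81 in all, and the labels name no genetic modification. The groups were oocytes at the germinal vesicle stage (GV), embryos of 2 cells (2C, 32 h after insemination), 4 cells (4C, 44 h) and 8 cells (8C, 56 h), morulae (MO, 122 h), whole blastocysts (BL, 172 h), and ICM and TE taken from blastocysts. A further group of 8-cell embryos, 8A, was grown with α-amanitin at 50 µg/ml, an inhibitor of transcription by RNA polymerase II, and was collected at 56 h. ICM was obtained by immunosurgery, which lyses the outer cells with antibody and complement, and TE by cutting it away with a blade. How many cells of the other lineage each preparation held was not stated, and lineage marker genes were not checked because gene positions on the build of the peaks were not used here.

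The lists held 11209 to 185272 peaks each, and sequencing depth was unknown. Autosomal cover ranged from 37.7 to 176.1 Mb among the H3K4me3 lists, 43.4 to 141.8 Mb among the H3K27ac lists, 110.0 to 281.5 Mb among the H3K27me3 lists and 96.6 to 187.5 Mb among the H3K9me3 lists. A share of stretches covered can therefore move with the length of a list, and the share of all 500 bp windows of the autosomes covered in the same libraries is given as the background. A stretch is called marked in a library when at least 50% of its bases lie under peaks, and marked in a group when that holds in both libraries, or in all 3 for ATAC. The labels do not say that libraries of a group came from separate embryo pools, so the p-values below measure only the spread between these libraries.

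TE-specific stretches were short and mostly far from promoter marks. Their median width was 350 bp, with quartiles at 300 and 500 bp and a maximum of 1800 bp, and together they spanned 1535 kb. At the width limit, 379 were exactly 200 bp wide and 333 others were left out at 150 bp. The median distance to the nearest H3K4me3 peak of ICM, TE or BL was 18.4 kb, and 912 stretches (25.3%) lay 50 kb or more away. At that limit, 74 lay 1000 to 1200 bp from H3K4me3 and 83 others were left out at 800 to 1000 bp. Open chromatin of ICM was often close by: the median distance to an ICM ATAC peak was 4.8 kb, 310 stretches (8.62%) had one within 500 bp and 21 within 50 bp. The mirror set, chosen by the same rule with ICM and TE exchanged, held 6394 stretches, 35.7% of the 17890 distal ones in ICM, with the same median width and a median distance to H3K4me3 of 20.2 kb. Another set of 3429 distal stretches was open and acetylated in every library of both lineages.

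Most stretches had no other within 1 kb, and 1555 had none within 50 kb. These distances were not computed for the other sets. Another TE-specific stretch lay within 1 kb of 741 of them (20.6%) and within 50 kb of 2043 (56.8%), and joining neighbours under 1 kb apart left 3203 separate loci. Of 2502 autosomal windows of 1 Mb, 1173 (46.9%) held none, the mean was 1.44 per window, and 14 windows held 10 or more. The densest, chromosome 6 from 45000001 to 46000000 (build ARS-UCD1.2, as all positions here), held 24 against 3 ICM-specific stretches. Chromosome 24 from 57000001 to 58000000 held 20 against 4, and chromosome 8 from 16000001 to 17000000 held 15 against 0. Distal TE stretches as a whole, with the TE-specific ones among them, numbered 40, 39 and 21 in these windows. H3K27ac in BL was present on 12 of the 24 stretches on chromosome 6, 11 of the 20 on chromosome 24 and 6 of the 15 on chromosome 8, against 51.5% of all TE-specific stretches. On chromosome 24, 8 of the 20 had H3K27me3 and 8 had H3K9me3 at 8C, against 9.73% and 12.8% of all. On chromosome 8, 5 of the 15 had H3K27ac in GV, against 9.26% of all.

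Acetylation of the TE-specific stretches was scarce up to 8C, appeared on a minority of them in morulae and was found on most in blastocysts. The 2 libraries of each group marked 11.3% and 12.4% of the stretches in GV, 4.67% and 5.17% at 2C, 4.22% and 3.97% at 4C, 5.70% and 5.84% at 8C, 35.1% and 27.1% in MO, and 54.6% and 67.3% in BL. Both morula libraries lay above every earlier library and both blastocyst libraries above both morula libraries. The 500 bp windows ran the other way between these stages, with 4.98% and 4.80% covered in MO and 2.11% and 2.36% in BL. The share of marked stretches differed among the 6 stages from GV to BL (permutation test over 12 libraries, p = 0.0001, the smallest it can give, adjusted p = 0.0002 over the 6 stage tests of this kind). TE is part of the whole blastocyst and its H3K27ac chose the stretches, so the BL share and this test are not independent of the choice.

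**Figure D1:**
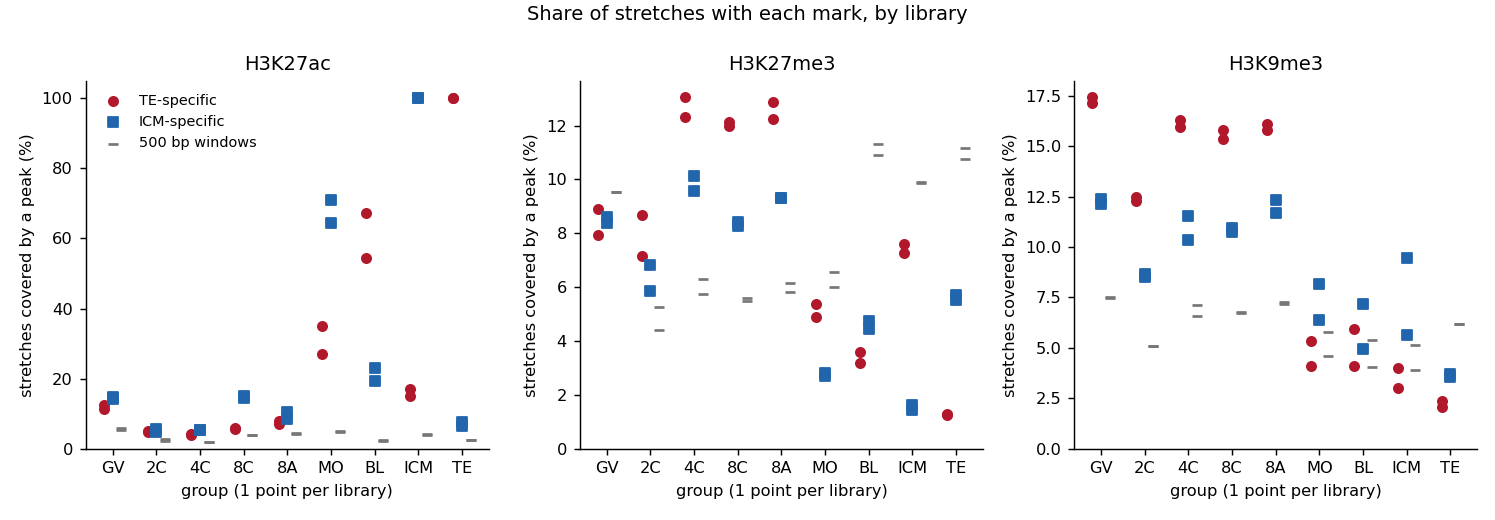
Percentage of TE-specific stretches (circles), ICM-specific stretches (squares) and 500 bp autosomal windows (dashes) covered over at least 50% of their length, 1 point per library, for 3 histone marks (y axes differ) in the 9 groups on the x axis. H3K27ac on TE-specific stretches lies at 12.4% or below up to 8C and reaches 54.6% and 67.3% in BL, while both repressive marks are higher at 8C than in MO. The 100% points of H3K27ac in TE and ICM are set by the way the stretches were chosen.

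ICM-specific stretches had the opposite order. Their morula libraries marked 71.1% and 64.4% and their blastocyst libraries 19.5% and 22.9%. At 8C the ICM-specific share, 14.6% and 14.9%, was also above the TE-specific share. The difference of TE-specific minus ICM-specific shares was -9.00 ± 0.123 percentage points at 8C, -36.6 ± 0.896 in MO and 39.7 ± 6.53 in BL (SD, n = 2 libraries), and it differed among the 6 stages (permutation test, p = 0.0001, the smallest it can give, adjusted p = 0.0002). Stretches shared by both lineages had 83.8% ± 5.98 in MO and 88.7% ± 3.44 in BL. Whole blastocysts hold both lineages, whose libraries chose the TE-specific, ICM-specific and shared sets. The BL shares, and the test of the difference that includes BL, are therefore not independent of the choice. Fewer marked cells and less mark per cell cannot be told apart in these libraries.

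The size of the morula share depended on list length. When every H3K27ac list was shortened to the same cover of 43.4 Mb by keeping the peaks with the highest scores, the TE-specific share was 3.27% ± 0.295 in GV, 2.02% ± 0.0983 at 8C, 6.89% ± 0.432 in MO and 45.2% ± 1.16 in BL. The ICM-specific share was then 24.5% ± 0.608 in MO and 12.4% ± 1.58 in BL, and the share of the shared stretches 38.9% ± 3.20 in MO and 78.4% ± 1.75 in BL. The order of MO and BL within each set, and of the sets within each of these stages, was the same as with full lists.

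Requiring both libraries, 863 TE-specific stretches (24.0%) were marked in MO and 1852 (51.5%) in BL. Of all distal TE stretches, 48.6% were marked in MO and 64.3% in BL, and of the 500 bp windows 3.71% and 1.86%. Earlier, 333 (9.26%) were marked in GV, where the windows gave 4.23%, 91 at 2C (windows 1.2%), 75 at 4C (windows 0.935%) and 126 (3.50%) at 8C (windows 2.53%). At 8C the share of marked stretches was thus close to that of the windows. From MO to BL the stretches gained more than they lost: 1220 (33.9%) were marked in BL and not in MO, 231 (6.42%) in MO and not in BL, and 632 (17.6%) in both. ICM-specific stretches showed 132 (2.06%) marked in BL and not in MO and 3052 (47.7%) in MO and not in BL.

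The first stage at which H3K27ac was present in both libraries was GV for 333 stretches (9.26%), 2C for 47 (1.31%), 4C for 33 (0.917%), 8C for 73 (2.03%), MO for 711 (19.8%) and BL for 1088 (30.2%). The remaining 1313 (36.5%) were marked at none of these stages, that is, never in both libraries of a stage. They were not all free of H3K27ac peaks there. Among ICM-specific stretches BL was the first stage for only 1.81% and MO for 45.8%, and 31.0% were marked at none of the stages. Among shared stretches MO was the first for 62.3%, and 5.80% remained. With the GV libraries set aside, the TE-specific counts were 779 for MO, 1166 for BL and 1421 for none. The share first marked at none of the stages was 22.3% when replicate 1 of each group was left out, since a single library then had to carry the mark. When the stretches were chosen anew from the shortened lists, which gave 3160, GV accounted for 2.72%, 8C for 0.791%, MO for 7.91% and BL for 52.9% of first stages.

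**Figure D2:**
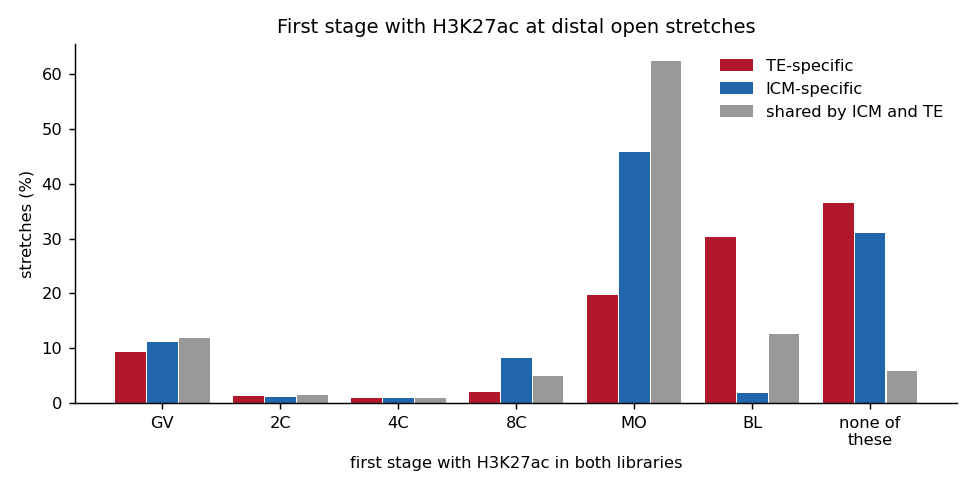
Percentage of TE-specific, ICM-specific and shared distal stretches (y axis) by the first stage, in developmental order from GV, at which both H3K27ac libraries marked them (x axis). BL is the first stage for 30.2% of TE-specific and 1.81% of ICM-specific stretches, and the last bars are stretches marked at none of the 6 stages.

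With full lists, acetylation in GV was mostly not found at the cleavage stages. Of the 333 stretches marked in GV, 44 were marked at 2C, 33 at 8C, 99 in MO and 158 in BL, and 264 had no base under an 8C H3K27ac peak. The GV lists covered 126.6 and 141.8 Mb, against 55.0 and 67.8 Mb at 2C and 90.5 and 89.7 Mb at 8C. In shortened lists the TE-specific share in GV, 3.27%, was no higher than at 2C, 3.27%, or 4C, 4.07%. How far list length accounts for the stretches not found was not tested. Of the 73 first marked at 8C, 20 were marked at no later stage, 15 in MO alone, 20 in BL alone and 18 in both. The stretches first marked in GV also carried the oocyte's H3K4me3 more often: 39.0% had it in GV, as did 66.0% of the 47 first marked at 2C. The share was 3.94% among stretches first marked in MO and 3.40% among those first marked in BL. Of the 711 first marked in MO, 537 (75.5%) were marked in BL. The most frequent courses after no mark at all were BL alone with 1088 stretches, MO and BL with 537, and MO alone with 174.

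Over all TE-specific stretches, H3K4me3 was marked on 319 (8.87%) in GV, where 4.97% of the windows were, and on 9 (0.250%) in MO, where 1.66% of the windows were. In lists shortened to one covered length the GV share was 1.76% ± 0.255, close to the 1.55% ± 0.00720 of the windows, and the MO share 0.0417% ± 0.0590 (SD, n = 2). By library the shares were 10.6% and 13.3% in GV, 5.56% and 5.20% at 2C, 4.06% and 5.50% at 4C, 1.70% and 3.78% at 8C, and 0.361% and 0.667% in MO. Both morula libraries lay below every earlier one, and the share differed among these 5 stages (permutation test over 10 libraries, p = 0.00213, adjusted p = 0.00213). In MO the ICM-specific libraries gave 4.99% and 6.49%. H3K4me3 in BL, ICM and TE was excluded by the rule. Morula H3K4me3 that lasted to the blastocyst was thereby excluded too. The MO share and the test over stages are therefore not independent of the choice.

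In whole blastocysts the sets that differed in H3K27ac were open to a like extent. The 3 BL ATAC libraries covered 63.3%, 67.1% and 82.7% of TE-specific stretches and 64.3%, 61.1% and 79.7% of ICM-specific stretches. All 3 covered 1682 TE-specific stretches (46.7%), 46.9% of ICM-specific and 92.1% of shared ones, against 2.79% of the windows. The ATAC difference between the TE-specific and ICM-specific sets in BL was 2.65 ± 3.57 percentage points (SD, n = 3), smaller than its spread, while the H3K27ac difference was 39.7 points. Where BL peaks overlapped TE-specific stretches, they ranked lower within their lists than at shared stretches. The median score percentile was 56.2 and 60.0 against 71.0 and 73.8 in the BL H3K27ac lists, and 43.3, 44.5 and 49.1 against 72.6, 71.2 and 77.8 in the BL ATAC lists.

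**Figure D3:**
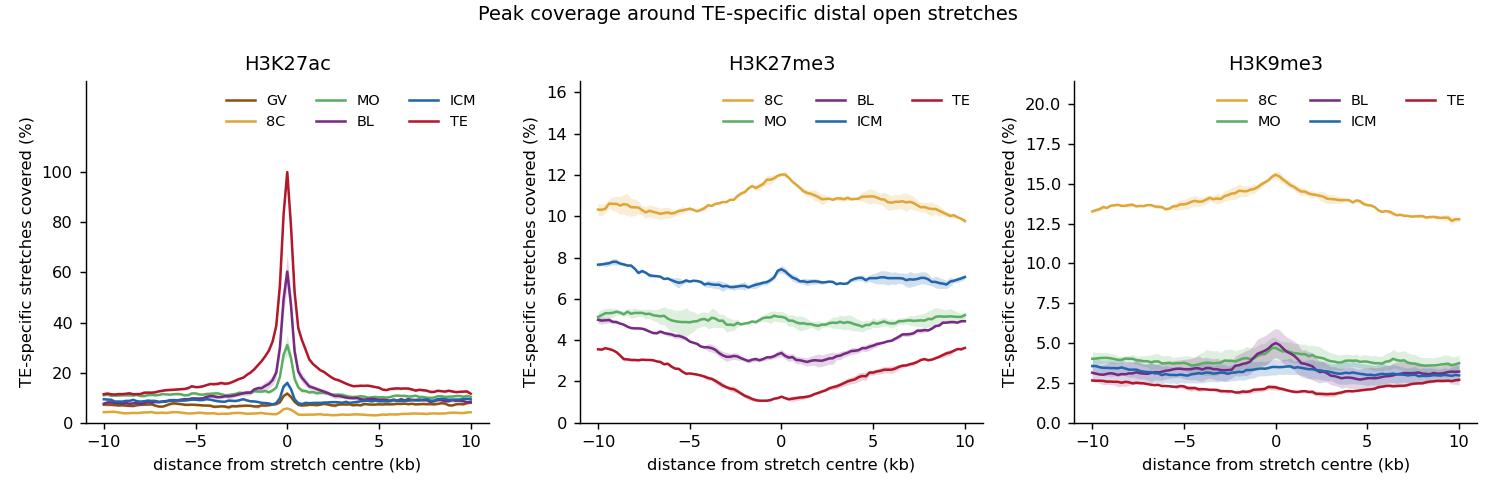
Percentage of TE-specific stretches under a peak (y axes differ) at each distance from the stretch centre (x axis, kb), for H3K27ac, H3K27me3 and H3K9me3. Lines are means over the 2 libraries of a group and bands their range. H3K27ac in MO and BL peaks at the centre within about 1 kb, while at 8C H3K27me3 is at 12.0% at the centre and 10.3% at 10 kb on one side and H3K9me3 at 15.6% and 13.3%, and H3K27me3 in TE is lower at the centre than at 10 kb.

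The acetylation was local. The mean cover by H3K27ac peaks at the stretch centre was 31.0% in MO, 60.3% in BL and 15.9% in ICM, and at 10 kb on one side it was 11.0%, 7.60% and 9.38%. H3K27me3 and H3K9me3 lay in wider blocks: at 8C they covered 12.0% and 15.6% of centres and still 10.3% and 13.3% at 10 kb. In TE the cover by H3K27me3 was 3.56% at 10 kb and 1.26% at the centre. H3K9me3 in BL covered 5.00% of centres and 3.14% at 10 kb.

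Before the morula, H3K9me3 was more frequent on TE-specific stretches than on windows, as was H3K27me3 from 2C to 8C. Shared stretches and distal TE stretches as a whole had both marks more often still. At 8C H3K9me3 was marked on 16.4% of shared stretches and on 1497 of the 9979 distal TE stretches, and H3K27me3 on 12.7% and on 1170. ICM-specific stretches had both marks less often at 8C, with H3K9me3 on 8.93% and H3K27me3 on 6.57%. H3K9me3 covered 17.1% and 17.5% of the stretches in the 2 GV libraries, 12.5% and 12.3% at 2C, 16.0% and 16.3% at 4C, 15.3% and 15.8% at 8C, 4.09% and 5.36% in MO and 4.09% and 5.92% in BL. Every library up to 8C lay above every library of MO and BL, and the share differed among the 6 stages (permutation test over 12 libraries, p = 0.00107, adjusted p = 0.00128). Requiring both libraries, 537 stretches (14.9%) were marked in GV and 462 (12.8%) at 8C, against 5.82% and 5.42% of the windows. In MO the count was 132 (3.67%) and in BL 133 (3.70%), close to the 4% and 3.45% of the windows. Of the 462 stretches with H3K9me3 at 8C, 354 also had it in GV, 39 in MO, 25 in ICM and 19 in TE. In lists shortened to one covered length the 8C share was also above the MO share, with 9.05% ± 0.216 at 8C and 3.42% ± 0.118 in MO.

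H3K27me3 covered 7.92% and 8.89% of the stretches in GV, 7.17% and 8.67% at 2C, 13.1% and 12.3% at 4C, 12.0% and 12.1% at 8C, 5.39% and 4.89% in MO and 3.59% and 3.20% in BL. The 4C and 8C libraries were highest and the BL libraries lowest. The share differed among the 6 stages (permutation test over 12 libraries, p = 0.00037, adjusted p = 0.000555). By both libraries, 240 stretches (6.67%) were marked in GV and 350 (9.73%) at 8C, against 7.28% and 4.31% of windows. In MO 150 (4.17%) and in BL 97 (2.70%) were marked, where the windows gave 5.27% and 9.66%. Of the 350 marked at 8C, 276 were marked at 4C, 23 in MO, 12 in BL and 7 in TE. TE-specific minus ICM-specific shares were 3.72 ± 0.0184 percentage points at 8C, 2.38 ± 0.254 in MO and -1.21 ± 0.0540 in BL (SD, n = 2), and the difference varied among the 6 stages (permutation test, p = 0.0001, the smallest it can give, adjusted p = 0.0002). TE and ICM, whose libraries chose the sets, are part of whole blastocysts. The BL shares of H3K27me3 and H3K9me3, and the tests that include BL, are therefore not independent of the choice.

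All TE-specific stretches were acetylated in TE by the rule, so acetylation after a repressive mark at cleavage is described in BL and MO only. It was less frequent there on stretches that had carried such a mark. At 2C, 4C or 8C, 612 TE-specific stretches (17.0%) had H3K27me3 or H3K9me3, and 266 of these (43.5%) had H3K27ac in BL. Of the 2986 without either mark, 1586 (53.1%) had it. In MO the shares were 21.4% and 24.5%. The stretches with no H3K27ac before TE had the marks most often at 8C: 16.9% carried H3K9me3 and 12.9% H3K27me3, against 11.0% and 8.82% of those first acetylated in BL and 3.00% and 2.10% of those first acetylated in GV.

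Growth with α-amanitin left these shares within a few points of untreated 8-cell embryos. H3K27ac marked 7.95% and 7.03% of TE-specific stretches in 8A and 5.70% and 5.84% at 8C. The 8A libraries were both higher, with a mean difference of 1.72 points, in an exact permutation test whose smallest two-sided p with 2 libraries against 2 is 0.333 (p = 0.333). The 8A lists were also longer, 100.7 and 97.7 Mb against 90.5 and 89.7 Mb. In lists shortened to one covered length the shares were 2.39% and 1.95% in 8A and 2.08% and 1.95% at 8C. With full lists, 182 stretches (5.06%) were marked in both 8A libraries, against 2.86% of windows. For H3K27me3 the 8A libraries gave 12.3% and 12.9% (exact permutation p = 0.333), for H3K9me3 16.1% and 15.8% (exact permutation p = 0.667) and for H3K4me3 1.86% and 1.47% (exact permutation p = 0.667). The ICM-specific stretches had 10.5% and 8.45% for H3K27ac in 8A against 14.6% and 14.9% at 8C, the opposite direction, and the test of that difference was not run.

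In ICM, most TE-specific stretches carried none of the 3 marks. H3K27me3 was present on 224 (6.23%), H3K9me3 on 86 (2.39%) and either on 262 (7.28%), with 48 having both. H3K27ac was present on 405 (11.3%). None of the 3 was called on 2933 (81.5%), and on 2408 (66.9%) no single base lay under a peak of any of them in either ICM library. In the windows, ICM H3K27me3 covered 8.58%, H3K9me3 3.12% and H3K27ac 3.24%. Of all distal TE stretches, 4.43% had H3K27me3, 3.42% had H3K9me3 and 46.3% had H3K27ac in ICM. The H3K27me3 share was therefore below that of the windows and above that of all distal TE stretches, while the H3K9me3 share was below both.

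By library, H3K27me3 covered 7.62% and 7.25% of TE-specific stretches in ICM and 1.25% and 1.31% in TE. H3K9me3 covered 3.00% and 4.00% in ICM and 2.39% and 2.06% in TE. By both libraries 36 stretches (1.00%) had H3K27me3 and 61 (1.70%) H3K9me3 in TE, while the windows gave 9.62% and 4.89%. The ICM-specific stretches mirrored the H3K27me3 values, with 71 (1.11%) marked in ICM and 305 (4.77%) in TE. H3K9me3 was not mirrored, with 341 (5.33%) of ICM-specific stretches marked in ICM and 185 (2.89%) in TE. ATAC in ICM and TE and H3K27ac in TE chose the stretches, so these lineage differences are descriptions. Among the 3160 stretches chosen anew from shortened lists, H3K27me3 was found in both ICM libraries on 1.84% and H3K27ac on 3.39%.

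Of the 224 stretches with H3K27me3 in ICM, the mark was present in GV on 81 (36.2%), at 4C on 32 (14.3%), at 8C on 23 (10.3%), in MO on 96 (42.9%), in BL on 95 (42.4%) and in TE on 32 (14.3%). Over all TE-specific stretches the shares were 6.67% in GV, 9.92% at 4C, 9.73% at 8C, 4.17% in MO, 2.70% in BL and 1.00% in TE. The 224 were thus above the whole set mainly in GV, MO, BL and TE, and close to it at 8C. Oocyte H3K4me3 had marked 97 of the 224 (43.3%), against 8.87% of all TE-specific stretches. H3K27ac was present in BL on 83 (37.1%), against 51.5% of all, and all 3 BL ATAC libraries covered 123 (54.9%), against 46.7% of all. Only 1 stretch had H3K27ac as well as H3K27me3 in ICM. The 86 with H3K9me3 in ICM had this mark in MO on 52, in BL on 70 and in TE on 39.

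H3K27ac in ICM was more frequent on stretches first acetylated in MO than on later ones. It was present in ICM on 28.4% of the stretches first marked in MO, 9.38% of those first marked in BL and 4.19% of those marked at none of the stages. H3K27me3 in ICM had the reverse course, with 1.13%, 4.87% and 7.01%, and reached 12.0% of stretches first marked in GV and 17 of the 47 first marked at 2C. Of the 405 stretches acetylated in ICM, 313 (77.3%) were acetylated in BL and 234 (57.8%) in MO.

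Marks also varied with position. Within 1 to 5 kb of H3K4me3, 31.3% of 802 stretches had H3K27ac in MO and 21.4% in ICM, and at 50 kb or more 19.0% and 4.06% of 912 did. H3K9me3 at 8C was also more frequent in the nearer class, 19.0% against 7.57%, whereas cover by all 3 BL ATAC libraries went the other way, 36.0% against 58.1%. H3K9me3 in ICM was 1.87% in the nearest class and 4.82% in the farthest. Distance to ICM open chromatin gave a similar order. With an ICM ATAC peak under 500 bp away, 25.5% of 310 stretches had H3K27ac in ICM, between 500 bp and 5 kb 15.6% of 1522 did, and at 5 kb or more 5.04% of 1766 did. Wider stretches had H3K27ac in BL more often, 64.4% of those of 500 bp or more against 38.6% of those of 200 to 250 bp, and the part that peak width plays in this was not tested.

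**Figure D4:**
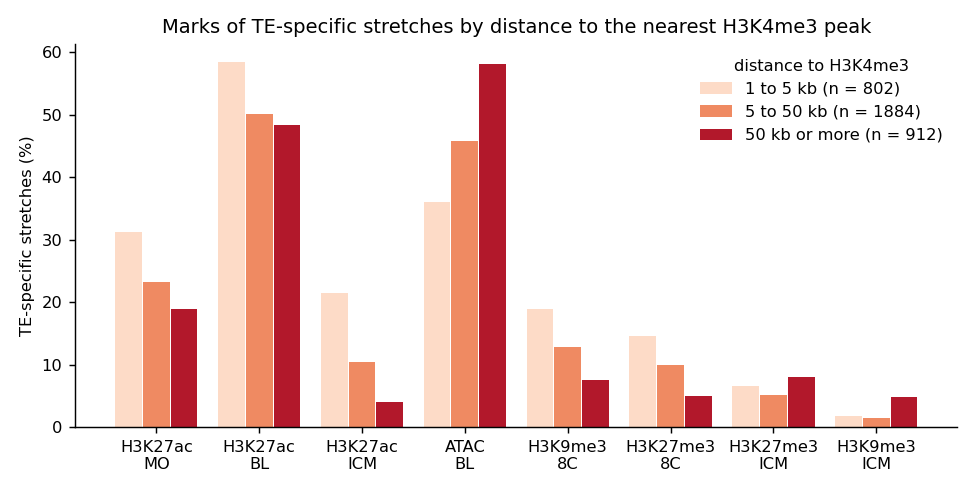
Percentage of TE-specific stretches marked in all libraries of a group (y axis) for 8 combinations of assay and group (x axis), in 3 classes of distance to the nearest H3K4me3 peak of ICM, TE or BL. H3K27ac in ICM decreases from 21.4% at 1 to 5 kb to 4.06% at 50 kb or more, while ATAC cover in BL increases from 36.0% to 58.1%.

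Single stretches show these courses. The widest, chromosome 3 from 1677451 to 1679250 (1800 bp), lay 1.35 kb from H3K4me3 and had no cover by H3K27ac up to 8C, 100% in both MO libraries and 97.2% and 100% in BL. Its cover by BL ATAC was 88.9%, 72.2% and 97.2%, and no H3K27me3 or H3K9me3 peak of any group touched it. The stretch on chromosome 2 from 63744101 to 63745800 (1700 bp), 411 kb from the nearest H3K4me3 peak, was first covered in BL, at 52.9% and 76.5%, and also had no repressive mark in any library. On chromosome 25 from 11286201 to 11287850 (1650 bp), H3K9me3 covered 100% in both libraries of GV, 2C, 4C and 8C 0% in both of MO and 0% and 72.7% in BL, and H3K27ac covered 81.8% and 84.8% in BL.

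Others carried repressive marks in ICM, some of them in TE as well. Chromosome 2 from 130541301 to 130542900 (1600 bp) had H3K27me3 and H3K9me3 over 100% in both ICM libraries, and H3K9me3 also over 100% in both TE libraries. The stretch had H3K27me3 over 81.25% and 0% in TE and over 100% in both libraries of MO and of BL. Its H3K27ac in BL was 71.9% and 87.5%, and in GV it had H3K4me3 over 90.6% and 100%. Chromosome 6 from 17307501 to 17308700 (1200 bp) carried H3K27me3 in ICM only, over 100% in both libraries and 0% in the libraries of every other group, with H3K27ac over 58.3% and 75.0% in BL. On chromosome 11 from 88738701 to 88739900 (1200 bp), both repressive marks covered 100% in both TE libraries as well as both ICM libraries, although the stretch was open and acetylated in TE. Marks on one DNA molecule and marks on different cells or alleles cannot be told apart in such libraries.

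Single stretches also represent the early and late classes, though not all were clear cases. Chromosome 24 from 50260151 to 50261400 (1250 bp) was the widest first marked in GV: H3K27ac covered 100% in both GV libraries, 52.0% and 84.0% at 2C, 0% in both at 8C, 88.0% and 40.0% in MO and 88.0% and 92.0% in BL. Chromosome 24 from 54315951 to 54317050 (1100 bp), first marked at 2C, kept H3K27ac over at least 50% in both libraries of every later stage to BL. It had H3K27me3 over 100% in both GV libraries. The widest first marked at 8C, chromosome 23 from 20580501 to 20581600 (1100 bp), had 77.3% and 100% there, 0% and 59.1% in MO and 0% in both BL libraries. Its H3K27ac cover before 8C was 0% and 63.6% in GV, 86.4% and 0% at 2C and 50% and 45.5% at 4C. It thus missed the limit in only 1 library of each earlier stage. The widest marked at none of the stages, chromosome 4 from 93798551 to 93799950 (1400 bp), was not free of H3K27ac. Its H3K27ac cover was 46.4% and 92.9% in GV, 39.3% and 32.1% in MO and 0% and 57.1% in BL. Each time it missed the limit of 50% in both libraries.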

How the data were processed

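CUT&Tag and ATAC-seq peak lists, 1 per library (81), were used as the authors deposited them. The build, ARS-UCD1.2, and the names of SICER, SAMtools 1.9, Picard 2.26.10 and BWA 0.7.9a come from the submitters' processing notes, which also name Trim Galore 0.4.0 and, for adapter removal, cutadapt 1.8.3. The lists are named for epic2, so the caller was not settled. The deposited score of each peak is a whole number whose meaning was not established, and it served only to rank peaks within a list.

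Peaks were placed on a 50 bp grid. H3K27me3 and H3K9me3 peaks have edges on a coarser grid, so their limits are less exact. Groups and replicate numbers came from the titles. Stretches were marked at 50% cover, with windows of 500 bp as background. Stages were compared by a permutation test over libraries (100000 resamples, Benjamini-Hochberg adjustment over 6 tests) and 8A with 8C by an exact permutation test. The statistics were tested on simulated data. Regions named are the 10 widest, the widest of each first-stage class, the 3 widest with each repressive mark in ICM and the 3 densest windows of 1 Mb, not all of which are printed. The stretches and the sets they are compared with were chosen with earlier results of these data known. Replicate numbers showed no pairing of libraries across stages within a mark, and pairing between marks was not examined. No genome of this build was used, so no gene or sequence is given. Python 3.11.15, NumPy 2.4.6, pandas 2.3.3 and matplotlib 3.10.9 were used.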

Additional observations from a re-analysis of the deposited data

How the results depend on the processing

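The 6 stage tests kept their direction and stayed past 0.05 under every alternative run: any covered base, a distance of 5 kb, shortened lists, each library left out in turn, and the replicate block. With the replicate block the p-values were 0.00128 for H3K27ac, for H3K27me3 and for both differences between sets, 0.00283 for H3K9me3 and 0.01628 for H3K4me3 (permutation tests). The smallest p this block allows over 12 libraries is 0.00139 (permutation test), so 0.00128 is a resampling estimate at that limit. Replicate numbers showed no pairing of libraries across stages within a mark, where none of 55 correlations of same-numbered deviations was over 0.1 (from -0.0430 to 0.0677). Pairing between marks or with ATAC was not examined. A width of at least 400 bp left 1782 stretches, and 0.561% of them had 4C as first stage. Leaving out libraries of the rule gave 3858 to 4738 stretches. With any covered base, 4C was first for 1.45%. Chosen anew from lists shortened to one covered length, there were 3160 stretches, whose first stage was GV for 2.72%, 8C for 0.791%, MO for 7.91% and BL for 52.9%, and in ICM H3K27me3 marked 1.84% and H3K27ac 3.39%. With 1 replicate left out, 2C was first for 2.22% to 2.45%, 4C for 1.67% to 1.75% and 8C for 3.09% to 3.14%. The share marked at none of the stages was 22.3% to 29.5%. H3K9me3 in ICM was then 3.00% to 4.00% and H3K27ac in ICM 15.2% to 17.1%. By construction a single library then has to carry the mark in place of both. An alternative chosen after seeing the data, at least 500 bp from any ICM ATAC peak, moved neither the number of stretches nor the shares by first stage and in ICM by over 1.5 times, and the stage tests were not run under it or under the width of 400 bp. Depth was unknown, and list length limits every share.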

Other observations

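Taken over 2C, 4C and 8C together, the 2 repressive marks often fell on the same stretches, though not necessarily at the same stage. Of the TE-specific stretches, 454 had H3K27me3 at 2C, 4C or 8C and 566 had H3K9me3, and 408 had each of them at one of these stages. The 408 made up 11.3% of TE-specific stretches, and the same combination was found on 8.01% of ICM-specific stretches and 5.00% of 500 bp windows. It was not counted for shared stretches or for distal TE stretches as a whole. The density of TE-specific stretches ranged over chromosomes from 0.957 per Mb on chromosome 17 to 2.01 per Mb on chromosome 22, and their share of distal TE stretches from 29.8% on chromosome 17 to 45.4% on chromosome 24.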
